A study of Mus musculus with 12 samples.

Results

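The Rag GTPases, the Ragulator scaffold and the folliculin complex set how lysosomes signal nutrients to the kinase complex mTORC1, and 10 of their genes were followed here in the open chromatin of 3 mouse brain sorts. The genes were Rraga, Rragc and Rragd (Rag GTPases), Lamtor1, Lamtor2, Lamtor4 and Lamtor5 (Ragulator subunits), and Flcn, Fnip1 and Fnip2 (folliculin and its partners). A peak was counted for a gene where the authors' annotation named that gene as nearest, whatever its tags. This gave 124 of 281974 peaks: 59 of 91770 in microglia, 35 of 107627 in NeuN+ nuclei and 30 of 82577 in Olig2+ nuclei. Every member had a peak in every sort except Rragd, which had none in Olig2+ nuclei.

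Open chromatin was read by ATAC-seq, in which a transposase cuts accessible DNA and tags it for sequencing, in forebrain of C57BL/6 mice aged 4 months. The mice were wild type (WT) or SgshKO, a knockout of Sgsh, the gene of the lysosomal heparan sulfate enzyme whose loss in people causes Sanfilippo syndrome type A. The labels do not state how the allele was made, the sex of the mice, or whether animals were pooled. Each genotype had 2 libraries from each of 3 sorts, 12 in all. Microglia were live cells gated as CD11b+, CX3CR1+ and low in CD45. The other sorts were lightly fixed nuclei: NeuN+ nuclei, negative for PU.1 and OLIG2, and Olig2+ nuclei, negative for PU.1 and NEUN. Nothing in the labels says that the 2 libraries of a group came from separate mice, so p-values measure the spread between these libraries, which may be technical.

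Ragulator is a scaffold that holds the Rag GTPases on the lysosomal membrane, with LAMTOR1 as its lipid anchor and the other LAMTOR proteins wrapped inside it. The Rag GTPases work as pairs, RagA or RagB with RagC or RagD, and bring mTORC1 to the lysosome when amino acids are plentiful. Folliculin, bound to FNIP1 or FNIP2, makes RagC and RagD hydrolyse GTP. In that state the pair also presents the transcription factors TFEB, TFE3 and MITF to mTORC1, which keeps them out of the nucleus. These factors bind E-boxes with the core CACGTG, and Rragd, Flcn and Fnip2 are known among their target genes.

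The promoters were therefore read for E-boxes and for a few motifs common near start sites. RefSeq (build GRCm38.p6, which the authors' build name mm10 also denotes) gave a window from 250 bases before to 50 after the start site for 10 of 10 members. CACGTG, which reads the same on either strand, lay in 4 of the 10 windows, against 7.15% of all 32851 windows. The longer form TCACGTGA was in 0 of 10, against 0.974% of all windows. The following sequences are the stretches of 3 promoters with CACGTG at different places relative to their peaks, and capitals mark CACGTG and, in Lamtor1, TCATGTG, a related MITF-type motif (M-box) searched on both strands.
Lamtor1, chr7:101905687-101905836, plus strand: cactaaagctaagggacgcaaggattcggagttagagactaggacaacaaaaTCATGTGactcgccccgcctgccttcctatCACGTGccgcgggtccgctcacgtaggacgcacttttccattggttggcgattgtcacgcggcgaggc
Rragc, chr4:123917283-123917432, plus strand: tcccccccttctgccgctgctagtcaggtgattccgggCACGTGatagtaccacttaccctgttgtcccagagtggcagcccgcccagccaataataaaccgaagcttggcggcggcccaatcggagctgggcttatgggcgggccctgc
Lamtor4, chr5:138255332-138255481, plus strand: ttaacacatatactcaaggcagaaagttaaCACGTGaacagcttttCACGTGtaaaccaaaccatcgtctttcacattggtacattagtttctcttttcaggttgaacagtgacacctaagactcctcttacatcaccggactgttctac

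The CACGTG of Lamtor1 began at -68 bases from the RefSeq start and that of Rragc at -112, both inside the start-site peaks of all 3 sorts. Lamtor4 carried a pair, at -120 and -104, and both lay outside its peaks, which opened only downstream of the start, from +70 bases on at the nearest. The fourth window with CACGTG was that of Fnip1, at -75, again inside the peaks of all 3 sorts, and its 30 bases are shown with the motif in capitals.
Fnip1, chr11:54438092-54438121, plus strand: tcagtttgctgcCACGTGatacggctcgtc

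Other motifs were thinly spread. TCATGTG was in Lamtor1 (-98) and Lamtor2 (-107), against 3.77% of all windows. The ETS-type motif CCGGAAGT was in Rraga (-50; 3.89% of all windows) and the cyclic AMP response element TGACGTCA in Flcn (-49; 1.79%), all on either strand. The short CCAAT motif was in 6 of 10 member windows and in 37.4% of all windows. A palindrome noticed only after the sequences were read, TCATATGA, stood in Fnip1 (+17) and Fnip2 (-105) and in 0.323% of all windows. The Fnip2 copy is printed because Fnip2 had the smallest adjusted p among the members' start sites. It lay inside the Fnip2 peaks of microglia and Olig2+ nuclei and just past the edge, at -108, of the NeuN+ peak.
Fnip2, chr3:79567766-79567795, minus strand: ggccggctccgTCATATGAccggccggcgg
None of these matches shows that a factor was bound.

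**Figure D1:**
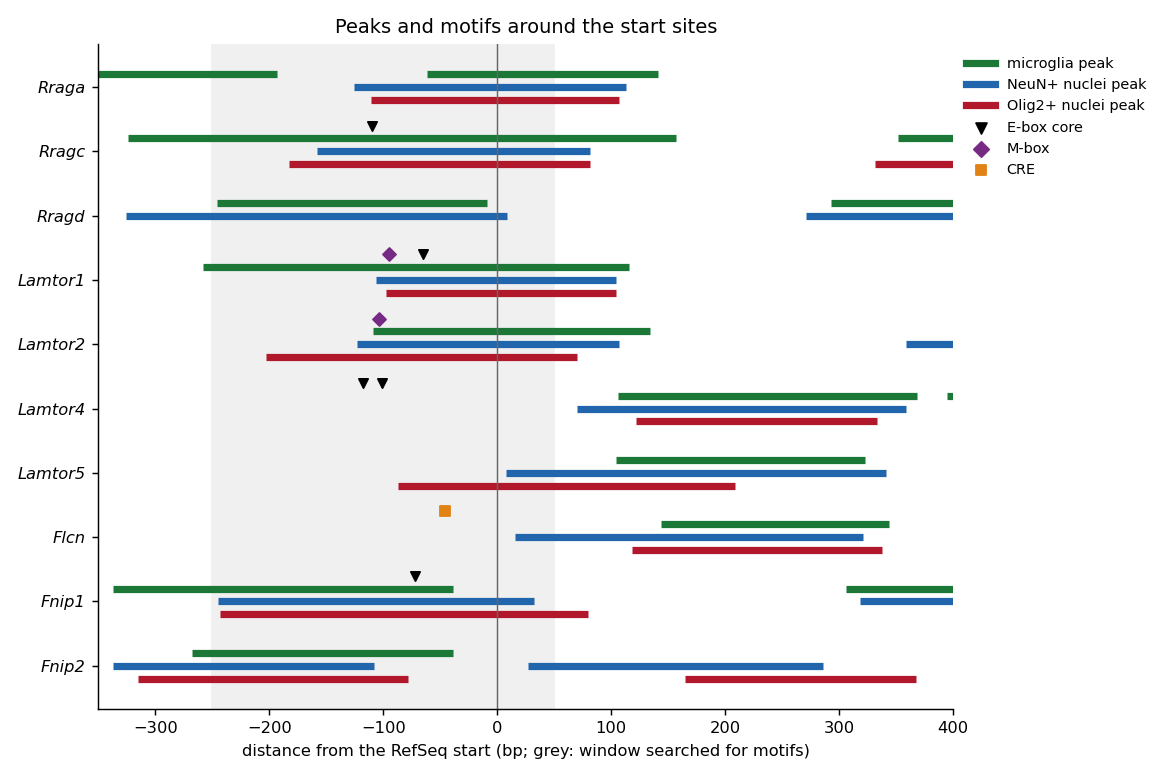
Position of the start-site peaks of the 10 members in the 3 sorts (bars, distance in bases from the RefSeq start site) with markers for the E-box core, the M-box and the cyclic AMP response element. The peaks of Lamtor4 lie downstream of its start and clear of its pair of E-box cores, whereas the core of Lamtor1, Rragc and Fnip1 falls under peaks of all 3 sorts.

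The libraries held 10771659 to 11804222 tags in microglia, 14326703 to 17706971 in NeuN+ nuclei and 15044194 to 19555924 in Olig2+ nuclei. Values below are tags per peak after the authors' scaling of each library to 10000000 tags. The share of tags inside peaks differed with genotype. It was 55.8% and 48.7% in WT against 67.4% and 53.7% in SgshKO microglia, and 26.7% and 25.9% against 21.5% and 21.2% in NeuN+ nuclei. In Olig2+ nuclei it was 31.8% and 31.8% against 30.9% and 31.8%. The sorts carried the markers of their labels, with start-site peaks at 8 of 8 microglia, neuron and oligodendrocyte-lineage genes in the matching sort. In NeuN+ nuclei the neuron markers summed to 1228 and 1160 start-site tags in WT, against 678 and 689 in SgshKO. Those of the microglia markers (1 of 8 genes) were 54.4 and 48.0 against 34.2 and 32.4, and no endothelial marker had a peak. Blood myeloid markers (2 of 6 genes) summed to 167 and 128 in WT and 203 and 201 in SgshKO microglia. Microglia markers in Olig2+ nuclei (2 of 8 genes) summed to 240.0 and 233 against 271 and 284. The part these shifts play in the results below was not tested, and fewer open cells cannot be told apart from less opening per cell. The Sgsh peak nearest its start averaged 28.6 tags in WT and 11.2 in SgshKO NeuN+ nuclei (log2 change -1.27, adjusted p = 0.00256), with 70.0 and 65.0 in Olig2+ nuclei (adjusted p = 0.653) and 173 and 259 in microglia (adjusted p = 0.196). The labels do not say which part of Sgsh was altered, so this peak does not check the genotype.

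A start-site peak is one within 1000 bp of the start named in the files, and for each gene the peak with the highest mean over the libraries of its sort is described. A peak was called where the limma p, adjusted by Benjamini-Hochberg over every peak of its table, was under 0.05. Fold changes are log2(tags + 1), SgshKO minus WT, with the standard error. Start-site peaks whose WT and SgshKO libraries did not overlap were common, in either direction. Their share of all start-site peaks was 57.8% (microglia), 77.8% (NeuN+) and 60.9% (Olig2+). Lack of overlap without a call therefore carries little weight below.

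Start sites of Ragulator genes moved most clearly at Lamtor1, the gene of the subunit that anchors the complex in the lysosomal membrane. In microglia its peak (chr7:101905579-101905953) had 197 and 141 tags in WT and 285 and 461 in SgshKO. Both SgshKO libraries were above both WT libraries, and the peak rose by 1.12 ± 0.28 (adjusted p = 0.00984). This was the only called start-site peak among the 18 of the members in microglia, and 8.59% of all start-site peaks there were called higher and 1.2% lower. The call was lost with quantile normalization (0.71, adjusted p = 0.0608), with DESeq2 (adjusted p = 0.207), and without either WT library (adjusted p = 0.0924 without replicate 1 and 0.634 without replicate 2).

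In Olig2+ nuclei the Lamtor1 peak (chr7:101905739-101905941) held 191 and 170 tags in WT and 253 and 271 in SgshKO. The groups did not overlap and the rise was 0.53 ± 0.09 (adjusted p = 0.000107), a call kept under every alternative run, the omission of each library included. NeuN+ nuclei had lower levels there, 77.0 and 88.7 in WT and 63.5 and 72.4 in SgshKO, and no call (-0.28 ± 0.14, adjusted p = 0.138). Dividing by the tags in peaks instead of all tags brought that value to 0.01.

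Lamtor4, whose product pairs with LAMTOR5 inside the complex, fell in Olig2+ nuclei. Its peak there (chr5:138255604-138255815, 5′ untranslated part of exon 1) had 155 and 144 tags in WT and 109 and 122 in SgshKO, with no overlap (-0.37 ± 0.11, adjusted p = 0.0197). DESeq2 gave an adjusted p of 0.272, and the call was also lost when WT replicate 1, WT replicate 2 or SgshKO replicate 1 was left out. In microglia the values were 149 and 112 against 210 and 177 (0.58 ± 0.29, adjusted p = 0.229), so that both SgshKO libraries were the higher ones without a call. NeuN+ nuclei had 138 and 121 tags in WT and 141 and 150 in SgshKO (0.17 ± 0.11, adjusted p = 0.245). That last peak was called higher after 3 other scalings, with changes of 0.46 by tags in peaks (adjusted p = 0.00171), 0.38 by median of ratios (adjusted p = 0.0110) and 0.72 by quantiles (adjusted p = 0.00747).

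Lamtor2 and Lamtor5 had no called peak in any sort. Lamtor2, which pairs with LAMTOR3 to form the dock for the Rag GTPases, had 110 and 113 tags in WT microglia against 113 and 70.6 in SgshKO (-0.31 ± 0.31, adjusted p = 0.607). In NeuN+ nuclei it had 128 and 119 against 108 and 98.4 (-0.25 ± 0.12, adjusted p = 0.105), and in Olig2+ nuclei 228 and 213 against 196 and 179 (-0.23 ± 0.09, adjusted p = 0.0715). At these peaks the SgshKO libraries were the lower ones in both nuclei sorts, while the microglia libraries overlapped. Other Lamtor2 peaks did not all share that direction. A second start-site peak changed by 0.57 in NeuN+ nuclei and by -0.86 in microglia, each without overlap. In Olig2+ nuclei 3 of the 4 Lamtor2 peaks had a positive change, up to 0.71. Lamtor5 was the weakest Ragulator start site in every sort. It held 39.8 and 47.4 tags against 48.5 and 36.2 in microglia, 15.9 and 20.3 against 15.4 and 19.1 in NeuN+ nuclei, and 27.0 and 16.9 against 16.6 and 16.6 in Olig2+ nuclei.

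**Figure D2:**
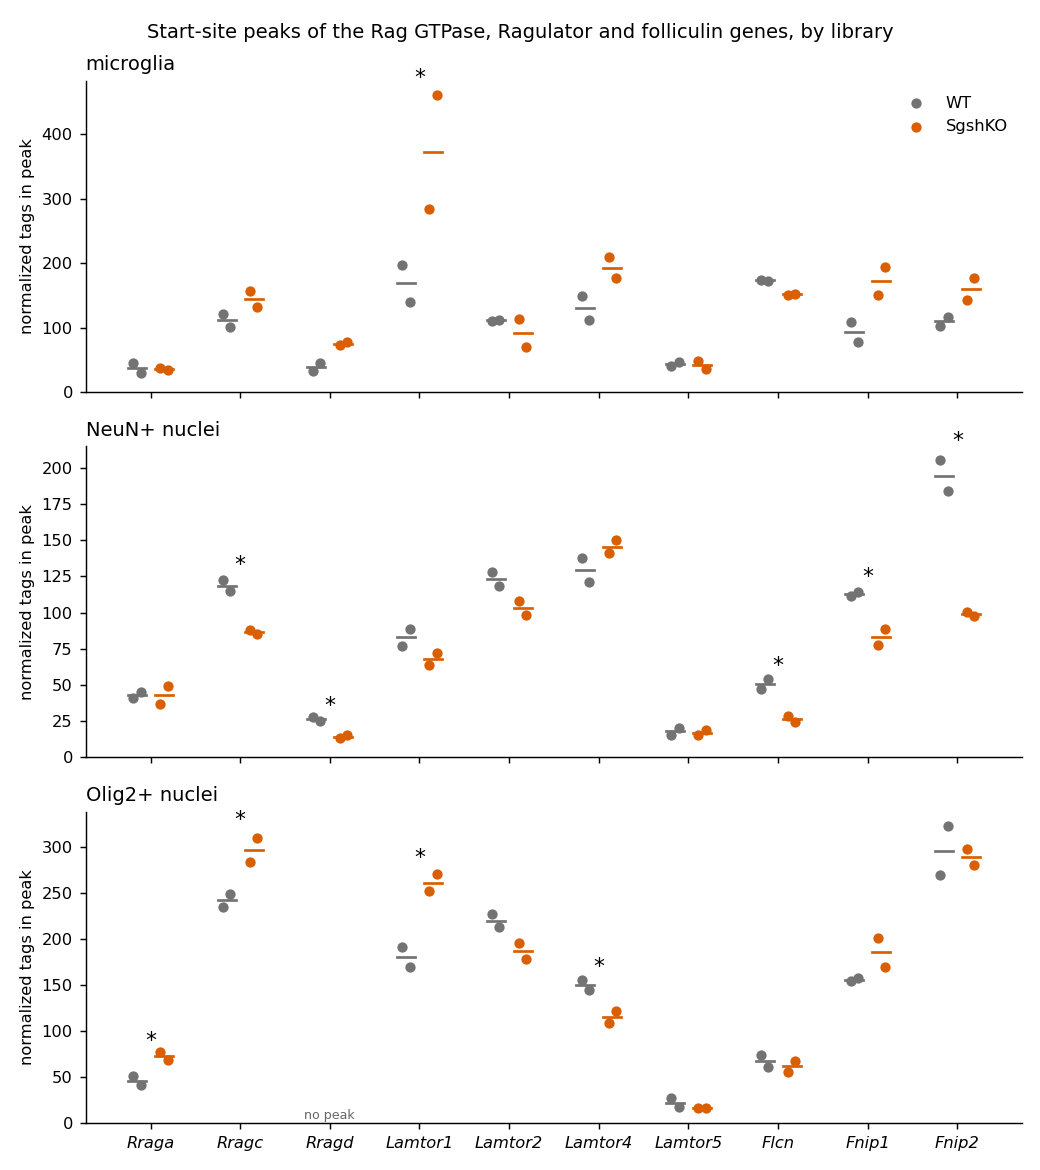
Tags per start-site peak (vertical axis, scaled to 10000000 tags per library) of the 10 members in microglia, NeuN+ and Olig2+ nuclei, with a point for each of the 2 WT and 2 SgshKO libraries and a star where the difference was called. Lamtor1 is the starred gene in microglia, 5 genes are starred in NeuN+ nuclei and 4 in Olig2+ nuclei.

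Calls at the Rag GTPase start sites differed by sort, which alone does not show that the genotype effects did. Those effects are compared between sorts further below, except for Rragd, which did not enter that model. Rragc, one of the pair of genes whose products folliculin acts on, was higher in SgshKO Olig2+ nuclei and lower in SgshKO NeuN+ nuclei. In Olig2+ nuclei its peak (chr4:123917250-123917514) had 235 and 250 tags in WT and 284 and 310 in SgshKO, a rise of 0.29 ± 0.08 (adjusted p = 0.0123). Without WT replicate 1 or SgshKO replicate 2 that call was lost (adjusted p = 0.140 and 0.0902). In NeuN+ nuclei (chr4:123917275-123917514) it had 122 and 115 against 88.0 and 85.1 (-0.45 ± 0.12, adjusted p = 0.00977). The groups did not overlap in either sort. The fall depended on the scaling: it was -0.15 by tags in peaks (adjusted p = 0.352), -0.23 by median of ratios (adjusted p = 0.145) and 0.10 after quantile normalization. The fall was also not called when any single library was left out, with changes from -0.50 to -0.22 over those limma and edgeR fits. Microglia had 121 and 102 tags in WT and 157 and 132 in SgshKO, without a call (0.37 ± 0.29, adjusted p = 0.490).

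Rraga, the gene of RagA, was called in Olig2+ nuclei. There its peak (chr4:86575562-86575780) had 51.4 and 40.9 tags in WT and 77.5 and 68.5 in SgshKO, a rise of 0.66 ± 0.16 (adjusted p = 0.00527) that was not called without WT replicate 2 (adjusted p = 0.132). In NeuN+ nuclei the libraries interleaved, at 41.4 and 45.2 in WT and 37.0 and 49.5 in SgshKO (-0.01 ± 0.18, adjusted p = 0.962). They did so too in microglia, at 45.8 and 29.7 against 37.2 and 34.4 (-0.04 ± 0.38, adjusted p = 0.965).

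Rragd, which encodes the other partner that folliculin acts on, had its strongest peak in the 5′ untranslated part of exon 1. In NeuN+ nuclei (chr4:32983269-32983613) it held 27.8 and 25.4 tags in WT and 13.3 and 15.2 in SgshKO, a fall of 0.86 ± 0.24 on the log2 scale (adjusted p = 0.0121). By tags in peaks the change was -0.57 (adjusted p = 0.0825), and edgeR on the recovered reads gave an adjusted p of 0.0519. The call was also lost when any single library was left out, with changes from -0.95 to -0.57 over those limma and edgeR fits. In microglia (chr4:32983291-32983515) the direction was the opposite, with 32.0 and 45.8 tags in WT and 72.7 and 77.98 in SgshKO. Both SgshKO libraries lay above both WT libraries, but that difference of 0.96 ± 0.35 missed the call (adjusted p = 0.0846). Median-of-ratios scaling (adjusted p = 0.0368), quantile normalization (0.0489) and edgeR (0.0265) called it, and DESeq2 (0.134) did not.

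Fnip2 and Flcn gave the largest falls among the members' main start-site peaks in NeuN+ nuclei, where Fnip1 fell less than Rragd and Rragc. Of the 3 Fnip2 start-site peaks there, only the main one was called. Fnip2, which encodes one of the folliculin partners, had 205 and 184 tags in WT and 101 and 97.8 in SgshKO (chr3:79567787-79568016). Its fall of 0.96 ± 0.11 (adjusted p = 6.75e-06) was called under every scaling and tool, and was smallest after quantile normalization (-0.40, adjusted p = 0.0240). Leaving out a SgshKO library ended the limma call (adjusted p = 0.126 and 0.129) but not that of edgeR (1.70e-06 and 4.93e-06). With 1 SgshKO library left, limma called 0 of the 107627 peaks of that table. In Olig2+ nuclei the same start site had 270 and 323 tags against 298 and 281, with overlapping groups (-0.03 ± 0.08, adjusted p = 0.844). Microglia had 103 and 117 in WT and 143 and 176 in SgshKO, without a call (0.53 ± 0.29, adjusted p = 0.288).

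Flcn itself, the gene of the GTPase-activating subunit, was lower in SgshKO NeuN+ nuclei. Its peak there (chr11:59809718-59810023) had 47.6 and 54.2 tags in WT and 28.6 and 24.8 in SgshKO, a fall of 0.91 ± 0.19 (adjusted p = 0.00182). The other scalings kept the call, with changes from -0.70 to -0.62, whereas DESeq2 gave an adjusted p of 0.206. Without WT replicate 2 limma gave 0.0537. In microglia the Flcn start site had 175 and 173 tags in WT against 152 and 152 (-0.19 ± 0.28, adjusted p = 0.739). Olig2+ nuclei had 74.2 and 60.3 against 56.0 and 67.8 (-0.12 ± 0.16, adjusted p = 0.634). Within 1000 bp of the start, a weaker Flcn peak of Olig2+ nuclei (chr11:59809149-59809386) fell from 22.3 and 25.1 to 11.1 and 16.6 (-0.76 ± 0.26, adjusted p = 0.0414), but not by median of ratios (adjusted p = 0.0585).

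Fnip1, which encodes the other folliculin partner, had opposite signs in microglia and NeuN+ nuclei. In NeuN+ nuclei (chr11:54437934-54438211) it held 112 and 114 tags in WT and 77.5 and 88.9 in SgshKO (-0.44 ± 0.13, adjusted p = 0.0143). As for Rragc, that fall shrank to -0.14 by tags in peaks (adjusted p = 0.415) and became 0.10 after quantile normalization. It was also not called when any single library was left out, with changes from -0.54 to -0.11 over those limma and edgeR fits. A smaller Fnip1 peak in intron 1 (chr11:54438497-54438729) also fell, from 10.8 and 13.6 to 5.58 and 4.44 (-1.13 ± 0.33, adjusted p = 0.0162), but was not called by tags in peaks (0.0592), by DESeq2 (0.460) or by limma without any single library. In microglia (chr11:54437842-54438140) the main peak had 109 and 77.9 tags in WT and 151 and 194 in SgshKO. The difference of 0.88 ± 0.30 was just outside the threshold (adjusted p = 0.0622) and was called by median of ratios (0.0262), edgeR (0.0124) and DESeq2 (0.0473). Olig2+ nuclei had 154 and 158 against 202 and 170 (0.24 ± 0.10, adjusted p = 0.0913), again with both SgshKO libraries the higher ones.

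**Figure D3:**
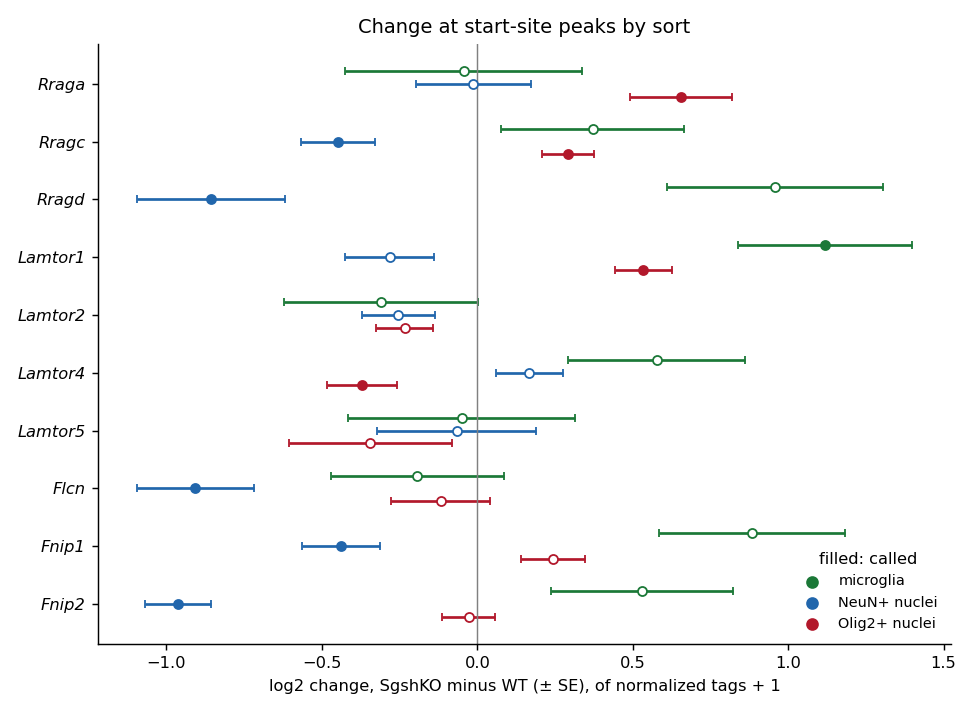
Log2 change (SgshKO minus WT, horizontal bars are the standard error) of each member's main start-site peak in the 3 sorts, with filled points for called peaks. The NeuN+ points of Fnip2, Flcn and Rragd lie near -0.9, while the microglia points of Lamtor1, Rragd and Fnip1 lie near 1.

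Counted over start-site peaks, 6 of 17 fell and 0 rose in NeuN+ nuclei, where 44.9% of all start-site peaks were called lower and 1.74% higher. The median member change was -0.28, against -0.53 over all start-site peaks. The members' share of falls was below that of the table. By tags in peaks 2 member start-site peaks fell and 1 rose, so the split of the calls rests on the scaling. Of all 107627 NeuN+ peaks, start sites or not, 9534 fell and 18962 rose by tags in peaks. The median over all peaks of the NeuN+ table moved from -0.23 to 0.05 with that scaling, and in microglia it moved from -0.08 to -0.28. In Olig2+ nuclei 3 of 14 member start-site peaks rose and 2 fell, where 12.7% of all were called higher and 7.56% lower. The median there was -0.01 for members and 0.05 for all.

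Away from start sites, most of the called member peaks of microglia lay in Fnip2. That gene spans a long stretch of chromosome 3 and had 20 peaks, 19 of them in introns over 1000 bp from the start. Summed over those 19, the libraries had 667 and 547 tags in WT and 1171 and 827 in SgshKO. Of the 19 peaks, 18 had a positive change and 13 had both SgshKO libraries above both WT libraries. Over all microglia peaks beyond 1000 bp, 48.8% had groups that did not overlap, in either direction. Changes ran from -0.39 to 2.30 with a median of 0.72, against a median of -0.12 over all microglia peaks over 1000 bp from a start. The peaks share 1 gene and the same 4 libraries, and are not independent.

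Of these intron peaks 5 were called. The strongest, in intron 10 (chr3:79491661-79491879), had 65.7 and 40.7 tags in WT and 154 and 131 in SgshKO, a rise of 1.44 ± 0.32 (adjusted p = 0.00354). The next by level, in intron 1 (chr3:79539690-79539981), rose from 27.7 and 16.9 to 69.3 and 45.5 (1.33 ± 0.39, adjusted p = 0.0290). The other 3, all in intron 1, were low in WT, at 1.73 to 7.78 tags, and had 13.0 to 29.4 in SgshKO. Their changes were 2.30 ± 0.53 (chr3:79544084-79544510, adjusted p = 0.00457), 1.99 ± 0.49 (chr3:79552180-79552403, adjusted p = 0.00917) and 1.73 ± 0.52 (chr3:79554271-79554502, adjusted p = 0.0319). These low values rest on few reads.

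The count of called intron peaks changed with filter, tool and library. When the lowest 25% of all peaks were left out, 12 of the 19 remained, of which 2 were called, with a median of 0.46; the 3 low intron 1 calls were among those left out. By tags in peaks 5 of 19 were called, 15 were positive and the median was 0.51. Quantile normalization called 6, median of ratios and edgeR 8, and DESeq2 2. Without WT replicate 1 limma called 1, and without WT replicate 2 it called 0, with medians of 0.83 and 0.51. Without SgshKO replicate 1 limma called 5, 14 were positive and the median was 0.50. The peak in intron 10 had an adjusted p of 0.0420 in the first case and 0.583 in the second. Marker sums moved with this group in the microglia libraries. Blood myeloid markers were higher in both SgshKO libraries, as given above. So were oligodendrocyte-lineage markers (5 of 8 genes), at 340 and 308 in WT and 418 and 356 in SgshKO. Precursor markers (1 of 3 genes) were lower, at 108 and 78.8 against 52.0 and 48.3. Endothelial markers (2 of 5 genes) overlapped between genotypes, at 184 and 158 in WT and 160 and 104 in SgshKO. Astrocyte markers (2 of 6 genes) did so too, at 41.5 and 35.6 against 59.7 and 39.9. Their part in the Fnip2 values was not tested.

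**Figure D4:**
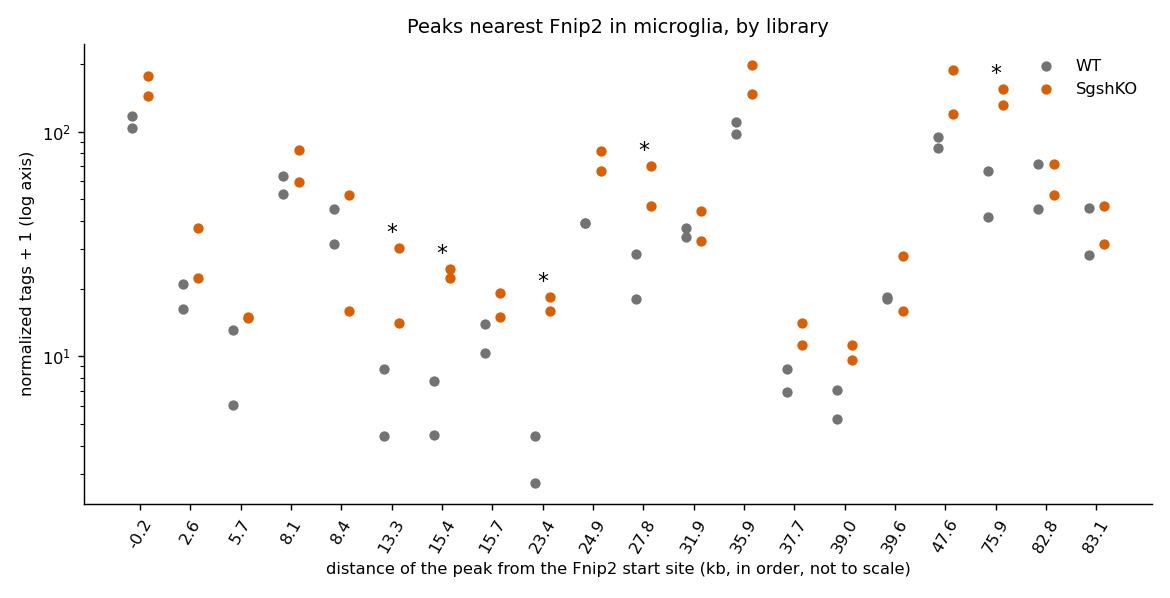
Tags (log axis) of the 20 Fnip2 peaks in the 4 microglia libraries, ordered by distance from the start site in bp, with stars on called peaks. The intron 10 peak at 75909 bp stands highest among the starred peaks, at 131 and 154 tags in SgshKO.

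In the nuclei few Fnip2 intron peaks were called. In NeuN+ nuclei a peak in intron 14 (chr3:79475036-79475326) rose from 9.63 and 11.9 to 19.5 and 25.4 (0.99 ± 0.27, adjusted p = 0.0100). One in intron 8 (chr3:79495264-79495470) fell from 20.4 and 29.4 to 10.5 and 15.2 (-0.90 ± 0.27, adjusted p = 0.0184). This fall was not called by tags in peaks (adjusted p = 0.0923), median of ratios (0.0630), quantiles (0.0805), edgeR (0.0524) or DESeq2 (0.457), and the rise in intron 14 was not called by DESeq2 (0.102). In Olig2+ nuclei a peak in intron 1 (chr3:79519078-79519287) fell from 18.7 and 16.4 to 10.5 and 7.31 (-0.92 ± 0.30, adjusted p = 0.0283; 0.0569 after quantile normalization). The highest Olig2+ member peak away from start sites was also in Fnip2 intron 1 (chr3:79559059-79559285), with 97.0 and 85.4 tags in WT against 73.2 and 71.8 (-0.32 ± 0.14, adjusted p = 0.0922).

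Rragc was the other member with many distant peaks, 14 in all in microglia and 9 in NeuN+ nuclei. In microglia a peak in intron 3 (chr4:123921131-123921499) rose from 19.9 and 11.9 to 36.4 and 50.1 (1.42 ± 0.42, adjusted p = 0.0299), a call lost by DESeq2 (adjusted p = 0.0541) and without either WT library (adjusted p = 0.159 and 0.727). The highest member peak of microglia away from start sites was in Rragc intron 5 (chr4:123928060-123928292), with 285 and 220 tags in WT and 369 and 269 in SgshKO, and the groups overlapped (0.33 ± 0.27, adjusted p = 0.505).

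In NeuN+ nuclei 3 intergenic peaks far downstream of Rragc rose. The highest (chr4:124175588-124175942, 258332 bp from the start) had 22.7 and 32.8 tags in WT and 48.2 and 47.6 in SgshKO (0.79 ± 0.20, adjusted p = 0.00750). At 225993 bp (chr4:124143302-124143551) the values went from 7.36 and 11.3 to 23.7 and 24.8 (1.32 ± 0.27, adjusted p = 0.00194), and DESeq2 called this peak as well (adjusted p = 0.0297). At 192097 bp (chr4:124109402-124109659) they were 3.97 and 0.56 against 9.77 and 8.25 (1.84 ± 0.47, adjusted p = 0.00755; 0.149 by DESeq2). Rragc is only the nearest gene of these peaks, and nothing here ties them to it.

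An intergenic peak about 39979 bp from the Rragc start was seen in all 3 sorts and differed between them. It fell in NeuN+ nuclei (chr4:123957270-123957554), from 25.5 and 20.3 to 9.07 and 10.2 (-1.16 ± 0.27, adjusted p = 0.00364; 0.264 by DESeq2). In microglia it had 40.6 and 39.8 tags in WT and 19.9 and 23.2 in SgshKO (-0.87, adjusted p = 0.181). In Olig2+ nuclei the SgshKO libraries were the higher ones, at 17.2 and 23.9 against 8.82 and 15.9 in WT (0.73, adjusted p = 0.0745).

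A few weak peaks completed the calls, and each lost its call under another setting. In NeuN+ nuclei Rragd intron 1 (chr4:32985496-32985989) rose from 6.23 and 3.39 to 9.77 and 10.8 (1.00 ± 0.36, adjusted p = 0.0412; 0.0614 after quantile normalization and 0.341 by DESeq2). Flcn intron 6 (chr11:59800831-59801206) fell from 8.50 and 9.04 to 3.49 and 1.90 (-1.44 ± 0.38, adjusted p = 0.00957; 0.394 by DESeq2). In Olig2+ nuclei Flcn intron 2 (chr11:59806260-59806478) fell from 10.9 and 11.8 to 5.53 and 4.65 (-1.02 ± 0.34, adjusted p = 0.0337; 0.0708 after quantile normalization). A peak at -10804 bp from Fnip1, at the end of another transcript (chr11:54427269-54427481), fell from 10.4 and 14.8 to 3.69 and 7.31 (-1.10 ± 0.36, adjusted p = 0.0275; 0.0735 after quantile normalization).

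Over all member peaks beyond 1000 bp, 6 of 41 rose and 0 fell in microglia, where 3.8% of such peaks were called higher and 2.72% lower. Of those 6, 5 were in Fnip2. In NeuN+ nuclei 5 of 18 rose and 3 fell, where 12.6% of all such peaks were called higher and 12.6% lower. In Olig2+ nuclei 0 of 16 rose and 3 fell, where 6.7% were called higher and 13% lower. Median changes of these peaks were 0.32, 0.30 and -0.41 for members, against -0.12, -0.11 and -0.13 over all.

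Single libraries decided several of these counts. In microglia 7 of 59 member peaks were called, where 7.37% of the whole table was. Without WT replicate 1 there was 1, and without WT replicate 2 there were 0 by limma (5 at an unadjusted p under 0.05), while there were 10 and 15 without SgshKO replicate 1 and 2. In NeuN+ nuclei the 14 calls (of 35 peaks, against 29.8% of the table) became 5 without either WT library. They became 0 without either SgshKO library, where 11 and 13 had an unadjusted p under 0.05 and edgeR called 9 and 7. In Olig2+ nuclei the 8 calls (of 30 peaks, against 19.8% of the table) became 2 and 3 without WT replicate 1 and 2, and 9 and 7 without SgshKO replicate 1 and 2. The whole tables moved likewise, in microglia from 6765 calls to 1159 and 557 without WT replicate 1 and 2 and to 18850 and 16531 without SgshKO replicate 1 and 2, so these moves are not particular to the members.

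Whether the genotype difference itself varied with the sort was tested in 1 model of the 12 libraries, on 16761 peaks that overlapped one to one by at least 50% in the 3 tables. Of the member peaks 9 entered: the start sites of Flcn, Fnip1, Fnip2, Lamtor1, Lamtor2, Lamtor4 and Rraga, the intergenic Rragc peak and a peak at -4893 bp from Lamtor5. Microglia and NeuN+ nuclei differed in their SgshKO effect at 4 of the 7 start sites, and 55.6% of all 10246 shared start-site peaks did so. The differences, microglia minus NeuN+, were 1.49 ± 0.21 for Fnip2 (adjusted p = 2.84e-06), 1.40 ± 0.27 for Lamtor1 (0.000142), 1.32 ± 0.24 for Fnip1 (9.33e-05) and 0.71 ± 0.25 for Flcn (0.0258). The median over all shared start sites was 0.83.

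This difference followed the scaling. By tags in peaks the median over all shared start sites became -0.14, and the values became 0.50 for Fnip2, 0.41 for Lamtor1, 0.33 for Fnip1 and -0.26 for Flcn, none of them called. Lamtor2, Lamtor4 and Rraga, uncalled before, then differed, by -1.05, -0.59 and -1.005, as did the Lamtor5 peak at -4893 bp, by -1.66. Quantile normalization gave the same signs, with 0.57, 0.22, 0.41 and -0.30 for the first 4 genes, and Lamtor2 and Lamtor4 (-0.67) were again called lower. Under all 3 scalings the values of Fnip2, Lamtor1 and Fnip1 were above those of Lamtor2 and Lamtor4, a grouping made after the values were seen and not tested. With edgeR on the recovered reads, 5 of the 9 member peaks differed, 3 with a positive and 2 with a negative value. Of all 16761 shared peaks edgeR called 4536, 3058 positive and 1478 negative, and the median over shared start sites was 0.22.

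Between NeuN+ and Olig2+ nuclei the effect differed at 4 of 7 start sites, against 42% of all: Fnip2 (-0.94, adjusted p = 0.00186), Lamtor1 (-0.82, 0.0223), Flcn (-0.79, 0.0207) and Fnip1 (-0.68, 0.0343). None of the 4 was called by tags in peaks, where they were -0.35, -0.23, -0.22 and -0.10, and Lamtor4 was called there at 1.13. Between microglia and Olig2+ nuclei 1 of 7 differed, Lamtor4 (0.95 ± 0.22, adjusted p = 0.00319), where 27.7% of all did. It stayed called by tags in peaks (0.54, adjusted p = 0.0391), where Rraga was called too (-1.09, adjusted p = 0.0146), and was not called after quantile normalization (0.51, adjusted p = 0.0624). The intergenic Rragc peak differed between Olig2+ nuclei and each other sort. The values were -1.60 ± 0.44 for microglia minus Olig2+ (adjusted p = 0.0110) and -1.89 ± 0.44 for NeuN+ minus Olig2+ (adjusted p = 0.00280). By tags in peaks these were -1.98, called, and -1.35 (adjusted p = 0.0507).

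**Figure D5:**
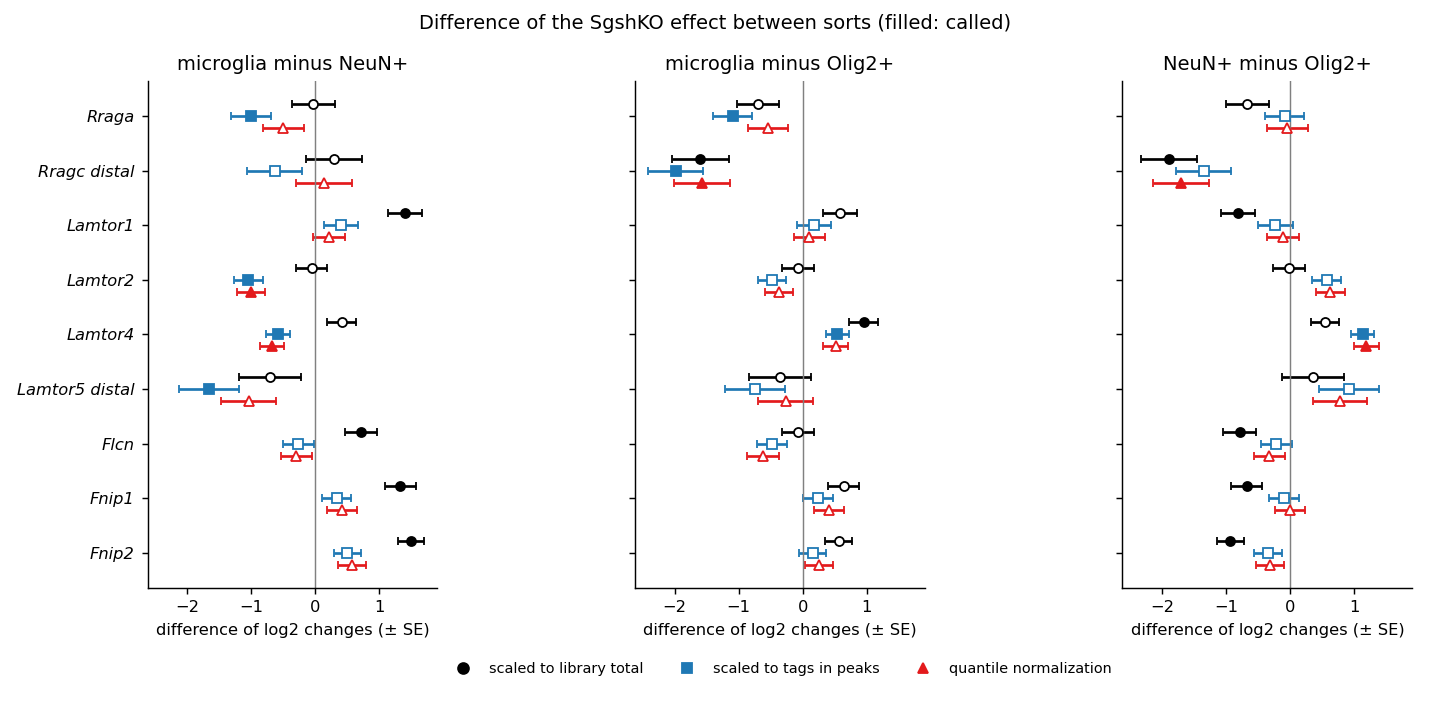
Difference between sorts in the SgshKO minus WT log2 change (horizontal axis, bars are the standard error) for the shared member peaks under 3 scalings, with filled points for called differences. The microglia minus NeuN+ values of Fnip2, Lamtor1 and Fnip1 drop from above 1.3 to 0.5 or less by tags in peaks, and the intergenic Rragc peak stays below -1.3 in both comparisons with Olig2+ nuclei.

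WT levels were compared between sorts in the same model. At the Flcn start site microglia were highest, with 175 and 173 tags in WT against 74.2 and 60.3 in Olig2+ and 47.6 and 54.2 in NeuN+ nuclei. Microglia exceeded NeuN+ nuclei by 1.75 (adjusted p = 1.24e-08) and Olig2+ nuclei by 1.36 (adjusted p = 5.19e-07), while NeuN+ and Olig2+ nuclei did not differ beyond their spread (-0.39, adjusted p = 0.0744). Fnip2 ran the opposite way, highest in Olig2+ nuclei (270 and 323), then NeuN+ nuclei (205 and 184), then microglia (103 and 117), and each neighbour differed (0.60 and 0.82 apart on the log2 scale, adjusted p = 0.00152 and 3.51e-05).

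Lamtor2 was higher in Olig2+ nuclei than in NeuN+ nuclei (NeuN+ minus Olig2+ -0.83, adjusted p = 0.000359) and than in microglia (-0.98, adjusted p = 3.00e-05), which did not differ from each other beyond their spread (-0.15, adjusted p = 0.469). Fnip1 had the same order, at -0.46 (adjusted p = 0.0277) and -0.75 (adjusted p = 0.000475) against Olig2+ nuclei and -0.29 (adjusted p = 0.141) between the lower sorts. Lamtor1 was low in NeuN+ nuclei alone, by 1.00 below microglia (adjusted p = 6.46e-05) and -1.12 against Olig2+ nuclei (adjusted p = 3.28e-05). Per 100 bp of peak the first of these was 0.18 and was not called, since the microglia peak was the wider. Rraga and Lamtor4 did not differ between any 2 sorts beyond their spread, with adjusted p from 0.238 to 0.985, although per 100 bp Lamtor4 was called lower in NeuN+ than in Olig2+ nuclei (-0.65). The intergenic Rragc peak was highest in microglia, then NeuN+, then Olig2+ nuclei (0.79 and 0.89 apart, adjusted p = 0.0298 and 0.0222). By tags in peaks, WT microglia were also called lower than NeuN+ nuclei at Fnip1 (-0.71), Rraga (-0.64), Lamtor2 (-0.57) and Lamtor4 (-0.43). NeuN+ minus Olig2+ was then -0.31 at Fnip2 and -0.17 at Fnip1, and microglia minus NeuN+ was 0.39 at the Rragc peak, none of them called. The Lamtor5 peak at -4893 bp was higher in microglia than in NeuN+ nuclei (1.31, adjusted p = 0.00186) and Olig2+ nuclei (0.87, adjusted p = 0.0288), the latter not by tags in peaks (0.75, adjusted p = 0.0526). Of all shared start sites, 66.9%, 70% and 52.1% differed between microglia and NeuN+, microglia and Olig2+, and NeuN+ and Olig2+ libraries. Sort and preparation (live cells or fixed nuclei) cannot be told apart.

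Rragc's own start site entered the model only when 25% overlap was accepted. It was then lower in WT NeuN+ nuclei and microglia than in Olig2+ nuclei (-1.03 and -1.12), and its genotype effect differed between microglia and NeuN+ nuclei (0.82, adjusted p = 0.00226) and between NeuN+ and Olig2+ nuclei (-0.74, adjusted p = 0.00869). The medians over all start sites shared at that overlap were close to these, at 0.81 and -0.64. Of all 19034 peaks shared at that overlap, 7823 and 6012 were called in these 2 comparisons. Other scalings were not run at that overlap.

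The rest of the pathway was given by a list of 35 names (34 genes, as Samtor and Bmt2 are one gene), which held the upstream GATOR, KICSTOR and Sestrin sensors, the TSC complex and mTORC1 itself. In microglia 7 of its 51 start-site peaks rose and 0 fell, where 8.59% of all start sites rose and 1.2% fell, with a median of 0.30 against 0.03 over all. Scaled by tags in peaks, 8 rose and 1 fell, with a median of 0.09. Over all 91770 microglia peaks, start sites or not, that scaling called 5103 higher and 9419 lower, with a median of -0.28. Sh3bp4, which encodes a binding partner of the Rag GTPases, rose most, from 72.6 and 44.9 tags to 274 and 403 (2.52, adjusted p = 6.49e-07). Among the others were Itfg2 (1.22) of KICSTOR, Wdr59 (1.29) and Mios (0.98) of GATOR, the leucine sensor gene Sesn1 (0.94), and Rheb (1.18), which encodes the GTPase that switches mTORC1 on. In NeuN+ nuclei 26 of 53 fell and 1 rose, near the 44.9% of all start sites that fell, with a median of -0.45 against -0.53 over all. With libraries scaled by tags in peaks 13 fell and 3 rose, and after quantile normalization 4 fell and 6 rose. Of all 107627 NeuN+ peaks, start sites or not, 9534 fell and 18962 rose by tags in peaks. After quantile normalization these were 6352 and 10349. With the authors' scaling, Rragb, the gene of RagB, fell most (-1.68, adjusted p = 0.0111). Its tags were few, at 9.06 and 7.34 in WT against 0.70 and 3.81 in SgshKO. Among the others that fell were Mios (-1.13), Sesn1 (-1.06), Depdc5 (-1.05), Tsc1 (-0.82) and Sh3bp4 (-0.78). The 1 that rose was a Rheb peak at -873 bp (0.94, adjusted p = 0.00236). In Olig2+ nuclei 4 of 54 rose and 2 fell, Sh3bp4 (0.43), Rnf152 (0.93) and Rheb (0.19) being among those that rose. That is 11.1% called in either direction, against 20.3% of all start sites there.

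The transcription factors that RagC and RagD present to mTORC1 were read at their own start sites. In NeuN+ nuclei Tfeb fell from a mean of 154 to 84.7 tags (-0.87, adjusted p = 0.000141), Tfe3 by -0.63 (adjusted p = 0.00164) and Mitf by -0.43 (adjusted p = 0.00583), in a table where 44.9% of start sites fell and the median was -0.53. Tfeb stayed called by tags in peaks (-0.57, adjusted p = 0.00134), and Tfe3 (-0.33, 0.0525) and Mitf (-0.14, 0.346) did not. After quantile normalization none of the 3 was called, and Mitf was at 0.14. In Olig2+ nuclei a Tfeb peak at -7 bp rose from a mean of 203 to 264 tags (0.38, adjusted p = 0.00229). Tfe3 (-0.18) and Mitf (-0.10) were not called there. In microglia none was called. The most positive peak of each was at 0.44 for Tfeb (-100 bp, adjusted p = 0.320), 0.64 for Tfe3 (-66 bp, adjusted p = 0.135) and 0.33 for Mitf (-317 bp, adjusted p = 0.595). Their other start-site peaks were at -0.45 and 0.41 for Tfeb, -0.04 and 0.34 for Tfe3, and 0.20 for Mitf.

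For each of the 7 shared member start sites, the most similar of 8431 other shared start sites was found by Pearson correlation of log2 values over the 12 libraries. As a description, the closest were Mob1a for Flcn (r = 0.989), Glcci1 for Fnip2 (0.982), Cdca4 for Lamtor1 (0.978), 5430431A17Rik for Lamtor2 (0.975) and Cyld for Fnip1 (0.973). Rraga (Fam208b, 0.890) and Lamtor4 (Cited4, 0.873) had less similar partners. The 12 points share their sorts, genotypes and library depths.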

How the data were processed

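The authors deposited 1 table of peaks per sort, merged over its 4 libraries, with the nearest gene, the distance to its start and a signal. The deposited signal is the tags per peak and library, scaled per the file headers to 10000000 tags per library. Bowtie2, HOMER and the build mm10 are named in the submitters' processing notes. Versions and duplicate handling are not given in the sources read. Undoing the scaling gave whole reads for 100% of values (tolerance 0.02), with a median of 17 to 39 reads per peak across libraries.

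SgshKO and WT were compared within each table with limma 3.58.1 (R 4.3.3; lmFit and eBayes with a trend, two-sided) on log2(tags + 1), which understates changes of low peaks. Benjamini-Hochberg adjustment ran over all peaks of the table, and no peak was filtered out. Peaks shared by the 3 tables entered 1 limma model with 6 group means. The peaks named were each member's highest start-site peak, every other called member peak, and the highest member peak beyond 1000 bp in each sort.

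Other settings tried were a pseudocount of 0.5 or of 5, a filter on the lowest 25% of peaks, scaling by tags in peaks, median of ratios or quantiles, edgeR 4.0.16 and DESeq2 1.42.0 on the recovered reads, an overlap of 25%, a replicate block, and the omission of each library in turn. Tags per 100 bp, and edgeR without each SgshKO library of NeuN+ nuclei, were added after seeing the data. The fits were tested on simulated data. The members and lists were chosen with earlier results of these data known.

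Marker lists of 7 cell types gave summed start-site tags. In microglia the neuron sum was 254 and 288 in WT and 374 and 189 in SgshKO, and the microglia sum 2220 and 1882 against 2329 and 1800. In NeuN+ nuclei the oligodendrocyte-lineage sum was 179 and 155 against 85.8 and 88.2 and the astrocyte sum 199 and 184 against 131 and 133. The blood myeloid sum of NeuN+ nuclei (1 of 6 genes) was 35.1 and 32.8 against 9.77 and 8.89. In Olig2+ nuclei the oligodendrocyte-lineage sum was 3066 and 3034 against 2611 and 2638, the precursor sum 260 and 260 against 306 and 299, and the neuron sum 385 and 424 against 465 and 448, with no astrocyte or endothelial peak.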

Additional observations from a re-analysis of the deposited data

Results flagged for a closer look

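The genotype difference itself differed between sorts at 6 of 9 member peaks, by contrasts of a limma model of the 12 libraries. Benjamini-Hochberg adjustment ran over 16761 shared peaks. Microglia minus NeuN+ was called at 4 of the 9 and at 7116 of all shared peaks. For microglia minus Olig2+ these counts were 2 and 3619, and for NeuN+ minus Olig2+ 5 and 5318. Each value is the SgshKO minus WT change in the first sort minus that in the other, on the log2 scale. For microglia minus NeuN+ nuclei it was 0.7145 at the Flcn start site (adjusted p = 0.0258), 1.40 at Lamtor1 (0.000142), 1.4934 at Fnip2 (2.84e-06) and 1.3233 at Fnip1 (9.33e-05). For microglia minus Olig2+ nuclei it was 0.9478 at Lamtor4 (0.00319) and -1.6018 at the intergenic peak 39944 bp from Rragc (0.0110). For NeuN+ minus Olig2+ nuclei it was -0.7895 at Flcn (0.0207), -0.816 at Lamtor1 (0.0223), -0.9358 at Fnip2 (0.00186), -0.6821 at Fnip1 (0.0343) and -1.8934 at the Rragc peak (0.00280). The start-site values at Flcn, Lamtor1, Fnip2 and Fnip1 were not called in either comparison when libraries were scaled by their tags in peaks. The share of tags in peaks was lower in SgshKO than in WT NeuN+ libraries, and its part in these differences was not tested further. Each group has 2 libraries, so no single library of a group could be tested as standing apart.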

How the results depend on the processing

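With 2 libraries per group, the counts of called member peaks moved with tool and scaling. Against 7 in microglia, 4 were called without the lowest 25% of peaks, 14 by median of ratios, 14 by edgeR, and 3 by DESeq2. Against 14 in NeuN+ nuclei DESeq2 called 3. Against 8 in Olig2+ nuclei quantile normalization called 4 and DESeq2 3. The whole microglia table went from 6765 calls to 5107, 11950, 14202 and 4843 in the order of settings given. The whole NeuN+ table went from 32105 to 4900, and that of Olig2+ nuclei from 16370 to 13796 and 3589. In the 12-library model, WT microglia and NeuN+ nuclei differed at 5 of 9 member peaks, 3 with the filter, and 8 each by tags in peaks, quantiles and edgeR. WT NeuN+ and Olig2+ nuclei differed at 5, and at 3 by tags in peaks or quantiles. Of all 16761 shared peaks 11022 differed between WT microglia and NeuN+ nuclei. That count was 9120 with the filter, 10755 by tags in peaks, 11304 by quantiles and 11099 by edgeR. Between WT NeuN+ and Olig2+ nuclei 8292 differed, with 8580 by tags in peaks and 8624 by quantiles. Differences in genotype effect numbered 4 for microglia minus NeuN+ (2 by quantiles), 2 for microglia minus Olig2+ (1 by quantiles) and 5 for NeuN+ minus Olig2+ (1 by tags in peaks, 2 by quantiles, 2 by edgeR). Over all shared peaks they numbered 7116 (3561 by quantiles), 3619 (3204 by quantiles) and 5318 (1584 by tags in peaks, 1715 by quantiles, 1739 by edgeR). Leaving out each library in turn, limma gave 0 to 15 calls in microglia, 0 to 5 in NeuN+ and 2 to 9 in Olig2+ nuclei, and edgeR without a SgshKO library gave 7 and 9 in NeuN+ nuclei. In the 12-library model limma gave 3 to 5 for WT NeuN+ against Olig2+ nuclei. For the effect of microglia minus Olig2+ and NeuN+ minus Olig2+ it gave 1 to 5 and 2 to 6. In these 3 comparisons the calls over all shared peaks also rose without some libraries and fell without others. Such moves are therefore not particular to the members. The cause was not tested, except that a library left out leaves fewer samples and the filter tests fewer peaks.

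The replicate number as a block called 12 member peaks in microglia, against 7 without it. Over all 91770 microglia peaks the calls went from 6765 to 14489 with the block, so this move is not particular to the members. Peak by peak, the deviations of same-numbered libraries were hardly correlated (0.04 in microglia, 0.0036 in NeuN+ and 0.00069 in Olig2+ nuclei). This correlation does not see a shift shared by all peaks. In microglia, replicate 1 had the higher share of tags in peaks in both genotypes (55.8% against 48.7% in WT, 67.4% against 53.7% in SgshKO). The labels do not say what the numbers mark, so they were not used as pairs.

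Signs turned under other scalings or tools, also for the called NeuN+ falls of Rragc and Fnip1 and the called Flcn effect difference. In NeuN+ nuclei, Rraga went from -0.01 to 0.2213 by DESeq2, 0.2231 by edgeR, 0.1986 by median of ratios, 0.2992 by quantiles and 0.2788 by tags in peaks. Lamtor5 went from -0.07 to 0.1467, 0.1478, 0.1385, 0.0487 and 0.2166 in that order. Quantiles turned Fnip1 to 0.1007, Lamtor1 to 0.205, Lamtor2 to 0.3036 and Rragc to 0.0985, and tags in peaks turned Lamtor1 to 0.0134 and Lamtor2 to 0.0428. In Olig2+ nuclei Fnip2 went from -0.03 to 0.0359 by DESeq2, 0.0347 by edgeR and 0.04 by median of ratios. In microglia Lamtor5 became 0.0041 and Rraga 0.0125 by median of ratios, and by quantiles Rraga became 0.0261 and the Rragc peak in intron 5 became -0.1158. Among WT contrasts, NeuN+ minus Olig2+ turned for Rraga (0.0317 by edgeR, 0.0051 by quantiles, 0.2061 by tags in peaks) and Lamtor4 (0.0888 by quantiles, 0.0844 by tags in peaks). Per 100 bp, microglia minus NeuN+ became 0.1343 for Lamtor4 and 0.0058 for Rraga. Among differences in genotype effect, NeuN+ minus Olig2+ turned for Lamtor2 (0.4393 by edgeR, 0.6255 by quantiles, 0.5668 by tags in peaks). Microglia minus NeuN+ turned for Lamtor4 (-0.2358, -0.6747 and -0.5865), for Flcn by quantiles (-0.2956) and tags in peaks (-0.2633), and for the intergenic Rragc peak by edgeR (-0.297) and tags in peaks (-0.6298).

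Leaving out a library turned the sign of further uncalled values. In microglia these ran from -0.3483 to 0.2623 for Rraga, -0.6489 to 0.0281 for Lamtor2 and -0.2558 to 0.1553 for Lamtor5. In NeuN+ nuclei limma gave -0.2192 to 0.192 for Rraga, -0.3821 to -0.1816 for Lamtor1, -0.3214 to -0.1861 for Lamtor2 and -0.236 to 0.1033 for Lamtor5. With edgeR without a SgshKO library, which changes tool and library at once, the upper ends were 0.4276, 0.0382, 0.0168 and 0.3059. In Olig2+ nuclei the ranges were -0.2641 to 0.0292 for Flcn and -0.158 to 0.1021 for Fnip2. WT contrasts ranged from -0.2076 to 0.1999 (Lamtor4) and -0.5289 to 0.0817 (Rraga) for microglia minus NeuN+, -0.3559 to 0.1277 (Lamtor1) for microglia minus Olig2+, and -0.2434 to 0.0775 (Rraga) for NeuN+ minus Olig2+. Effect differences ranged from -0.3951 to 0.2819 (Lamtor2) and -0.3347 to 0.2759 (Rraga) for microglia minus NeuN+. For microglia minus Olig2+ they ranged from -0.2217 to 0.0716 (Flcn), -0.4148 to 0.2621 (Lamtor2) and -0.9835 to 0.2815 (the Lamtor5 peak at -4893 bp), and for NeuN+ minus Olig2+ from -0.0874 to 0.0479 (Lamtor2).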
